A study of Mus musculus with 3 samples.

Results

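The genes described here encode the enzymes and readers of histone acetylation. They are 30 genes of 21887 protein-coding records on the mouse chromosomes: 10 acetyltransferase genes (the Kat genes, Ep300, Crebbp and Hat1), 11 deacetylase genes of the Hdac family, 7 sirtuin genes and 2 bromodomain genes, Brd2 and Brd3. They are a list of gene names, drawn up with earlier results of these data known. Every summit of H3K9ac inside a gene record of the mouse build mm10, or within 1 kb of either of its ends, was collected, which gave 74 of 33248 summits from the list labelled young, 216 of 108787 from that labelled old and 104 of 45386 from that labelled ABC.

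Histone acetylation is set by acetyltransferases, which take the acetyl group from acetyl-CoA, and removed by zinc-dependent deacetylases and NAD-dependent sirtuins. Bromodomain proteins of the BET family bind acetylated histone tails and help to recruit the transcription machinery. H3K9ac, the mark measured here, sits mainly at promoters of active genes, and the GCN5 and PCAF enzymes encoded by Kat2a and Kat2b are its best known writers. Several of these enzymes, among them CBP and MOZ (Kat6a), are known to be needed for the upkeep of blood stem cells.

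The data were 3 CUT&Tag libraries of sorted haematopoietic stem cells (HSCs) from bone marrow of wild-type mice, with 50000 cells per assay. In CUT&Tag a transposase tethered to an antibody, here one against H3K9ac, cuts and tags the DNA beside the mark. The 3 groups were HSCs from young mice, HSCs from old mice and a further old group tagged ABC, which the labels do not explain, with 1 library each. Ages of 2 to 4 months and 18 to 24 months stand in the protocol, and were assigned by the y or o at the start of a title; the number of animals pooled was not stated in the labels. With no replicate there is no test and no p-value below, and a difference between libraries cannot be told apart from a difference between preparations. The values are summit positions and the authors' score, read as the −log10 q-value of the peak caller. Read depth was unknown. A score grows with depth, so a score or a rank (1 being the highest score of a list) describes a summit inside its own list and shows no change between lists.

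The names written inside the peak lists went against the labels. Peak names in the young-labelled list were those of old HSCs, in the old-labelled list those of an ABC sample and in the ABC-labelled list those of a second old HSC sample. Libraries are therefore called by their labels throughout, and no direction below is taken as one of age or treatment. Of 12 HSC marker genes 9, 11 and 8 had a summit within 1 kb of a record end in the libraries labelled young, old and ABC, with Mecom lacking one in all 3, whereas the B cell genes Cd79a and Pax5 had none in any. Of 5 myeloid genes 3, 4 and 3 had one, with Mpo, S100a8 and S100a9 marked in each library, Elane in the old-labelled alone and Ly6g in none. Of 3 T cell genes 0, 1 and 0 had one, of 4 erythroid genes 1 in each library and of 3 megakaryocyte genes 0, 3 and 1. The old-labelled list also held end summits at 4 of 5 genes of other tissues (Ins2, Myh6, Gfap and Krt5, scores of 1.98 to 3.17), which the other lists did not, and none of these was among its 33248 highest-scoring summits.

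Most acetylation genes carried H3K9ac at an end of their record, and in every library their share lay above that of all protein-coding genes. A summit within 1 kb of either end, called an end summit, was found at 22 of 30 genes in the young-labelled library, where 41.9% of all protein-coding genes had one. The old-labelled library had end summits at 26 of 30, against 56.9% of all genes, and the ABC-labelled library at 24 of 30, against 43.6%. Of the marked genes 6, 7 and 7 had end summits only where another protein-coding record lay within 1 kb, in the libraries labelled young, old and ABC. That left 16, 19 and 17 of 30, and the like share of all genes is not given. In 19 of 30 genes the end summit was present in all 3 libraries, against 36.3% of all genes. In equal-length lists, made of the top 33248 summits by score because the shortest list holds that many, the counts were 22, 23 and 22 of 30, against 41.9%, 45.5% and 40.5% of all genes. Counting summits inside the records too, 28, 30 and 29 genes had at least 1 summit, against 58.2%, 73.7% and 62.1% of all genes. These records are longer than most, with a median of 27068 bp against 17169 bp, so the last comparison is affected by length.

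By class, the sirtuin genes were marked at an end in 7, 7 and 6 of 7 cases in the libraries labelled young, old and ABC. The acetyltransferase genes were marked in 8 of 10 in each library. The Hdac genes were marked in 7, 9 and 9 of 11, with all 4 class I genes (Hdac1, Hdac2, Hdac3 and Hdac8) marked in all 3 libraries and Hdac4 and Hdac9 of class IIa in none. The Brd genes were marked in 0, 2 and 1 of 2, although both held summits inside their records in every library. The old-labelled count was 0 in equal-length lists, and the ABC-labelled end summit of Brd3 lay within 1 kb of the record of Brd3os. With scores of at least 5, or ends within 500 bp, neither Brd gene was marked in any library.

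**Figure D1:**
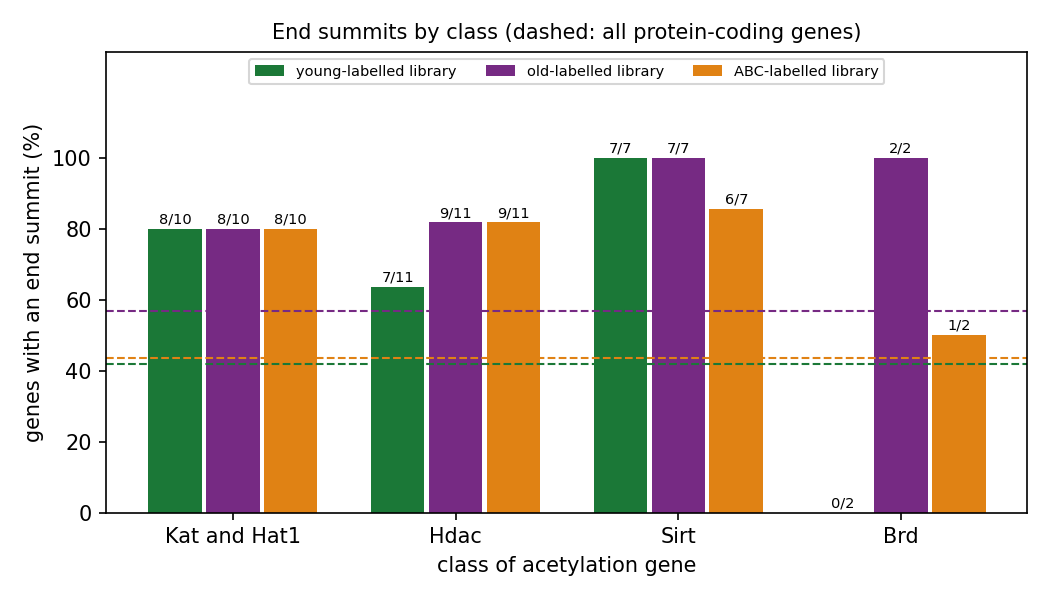
Percent of genes in each class (horizontal axis) with a summit within 1 kb of either record end, for the libraries labelled young, old and ABC (green, purple, orange; 1 library each, so no error bars). Numbers over the bars give genes marked and genes in the class, and dashed lines give the share of all protein-coding genes, 41.9%, 56.9% and 43.6%; the bars of the Kat, Hdac and Sirt classes all stand above their line.

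An end of a record is not always where transcription starts. RefSeq start sites, read from its promoter table for GRCm38.p6 (the same coordinates as mm10), were matched for 26 of the 30 genes; Kat6a, Hdac1, Hdac3 and Hdac10 are described by record ends alone. A summit lay within 1 kb of a start site in 21, 24 and 19 of 26 genes in the libraries labelled young, old and ABC, against 45.5%, 57.9% and 46.3% of all protein-coding genes with a start site in the table. In 17 of 26 genes this held in all 3 libraries, and in 1, Hdac9, in none. The start-site view changed the reading of several genes. Of the genes without end summits, Hdac4 had a start-site summit in the old-labelled library alone and Kat6b in the young-labelled library alone. Brd2 had one in all 3, within 1 kb of the record of H2-DMa. Of the start-site summits of these genes 16 of 25, 20 of 34 and 9 of 21 lay downstream of the start, against 73.6%, 69.9% and 72.2% of such summits over all protein-coding genes. The sides were measured differently. For these genes the start site was the gene's own, whereas over all genes it was the nearest one of any gene. A summit shared with a neighbouring gene can therefore change side, and the shares are not like for like.

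**Figure D2:**
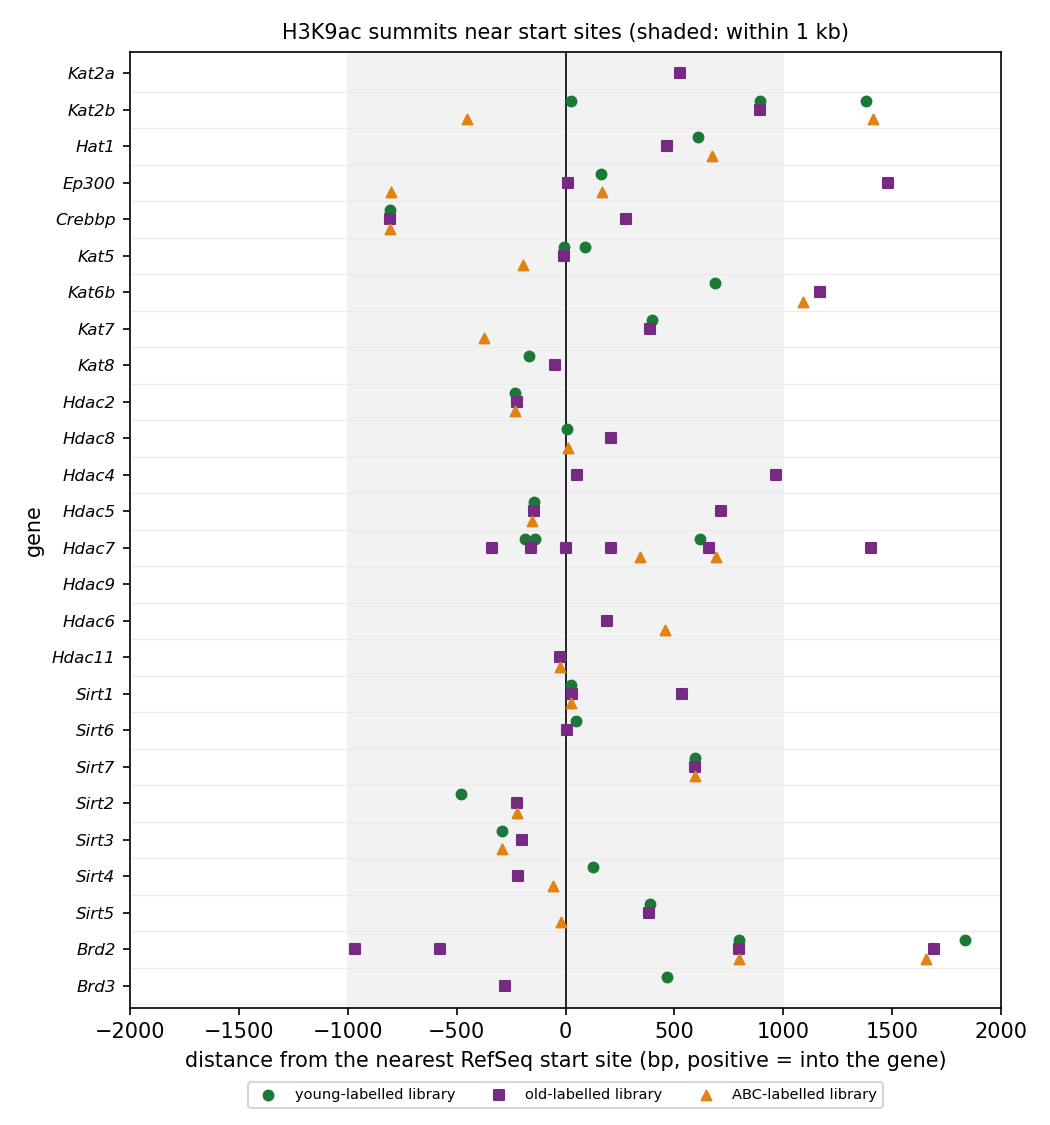
Distance in bp of each summit from the nearest RefSeq start site (horizontal axis, positive into the gene) for the 26 genes with a start site, over the stretch around the start; circles, squares and triangles are the libraries labelled young, old and ABC and the shaded band is 1 kb to either side. Hdac2, Hdac5, Sirt1 and Sirt7 show the 3 libraries at nearly the same place, and Hdac9 has no summit in the range.

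In 10 genes summits of at least 2 libraries fell inside the 300 bases from 250 before to 50 after a start site. These windows are shown for 7 of them, to place the summits in the promoter sequence; those of Sirt2, Sirt4 and Hdac7 are not shown. Hdac2, Sirt1, Hdac5 and Kat5 had summits there in all 3 libraries, Hdac8 in the young- and ABC-labelled, Hdac11 in the old- and ABC-labelled and Kat8 in the young- and old-labelled. Capitals mark each summit base with 5 bases on either side, and every sequence is from RefSeq, GRCm38.p6, 5′ to 3′ in the direction of transcription.
Hdac2, chr10:36974294-36974593, plus strand: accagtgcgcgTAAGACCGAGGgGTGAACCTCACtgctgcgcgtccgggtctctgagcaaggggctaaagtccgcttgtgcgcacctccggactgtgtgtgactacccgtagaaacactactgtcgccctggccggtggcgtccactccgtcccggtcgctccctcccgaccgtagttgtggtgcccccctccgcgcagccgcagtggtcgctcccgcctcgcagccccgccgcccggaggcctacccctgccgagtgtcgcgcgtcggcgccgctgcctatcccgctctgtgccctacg
Sirt1, chr10:63338986-63339285, minus strand: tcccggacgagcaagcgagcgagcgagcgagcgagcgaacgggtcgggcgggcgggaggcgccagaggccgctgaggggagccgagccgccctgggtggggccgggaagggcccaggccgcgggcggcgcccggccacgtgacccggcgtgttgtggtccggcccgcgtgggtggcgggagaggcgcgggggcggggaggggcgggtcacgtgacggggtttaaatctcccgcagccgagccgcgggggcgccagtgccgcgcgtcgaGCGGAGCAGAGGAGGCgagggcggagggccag
Hdac5, chr11:102230123-102230422, minus strand: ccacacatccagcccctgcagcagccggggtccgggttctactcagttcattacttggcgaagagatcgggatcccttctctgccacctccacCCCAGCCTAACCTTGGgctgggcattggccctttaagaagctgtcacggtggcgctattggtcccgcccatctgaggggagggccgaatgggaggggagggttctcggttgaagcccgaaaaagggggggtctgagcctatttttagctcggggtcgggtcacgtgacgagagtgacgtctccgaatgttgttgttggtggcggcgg
Hdac8, chrX:102505109-102505408, minus strand: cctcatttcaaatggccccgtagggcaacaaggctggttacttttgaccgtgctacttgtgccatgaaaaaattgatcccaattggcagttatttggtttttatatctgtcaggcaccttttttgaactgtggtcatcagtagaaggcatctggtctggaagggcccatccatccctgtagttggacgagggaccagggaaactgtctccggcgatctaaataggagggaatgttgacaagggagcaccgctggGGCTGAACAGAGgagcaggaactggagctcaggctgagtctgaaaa
Kat5, chr19:5610045-5610344, minus strand: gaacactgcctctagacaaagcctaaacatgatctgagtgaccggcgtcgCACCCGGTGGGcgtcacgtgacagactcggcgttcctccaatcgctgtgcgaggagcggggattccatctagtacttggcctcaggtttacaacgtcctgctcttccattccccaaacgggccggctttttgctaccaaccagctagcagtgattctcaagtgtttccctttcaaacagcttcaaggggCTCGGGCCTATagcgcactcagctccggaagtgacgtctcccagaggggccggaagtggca
Hdac11, chr6:91156565-91156864, plus strand: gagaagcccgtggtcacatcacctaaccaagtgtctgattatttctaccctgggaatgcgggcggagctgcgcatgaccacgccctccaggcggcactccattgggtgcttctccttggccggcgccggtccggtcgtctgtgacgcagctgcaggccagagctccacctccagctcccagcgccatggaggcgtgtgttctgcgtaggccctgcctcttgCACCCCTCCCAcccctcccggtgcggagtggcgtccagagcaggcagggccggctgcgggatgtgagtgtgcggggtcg
Kat8, chr7:127912267-127912566, plus strand: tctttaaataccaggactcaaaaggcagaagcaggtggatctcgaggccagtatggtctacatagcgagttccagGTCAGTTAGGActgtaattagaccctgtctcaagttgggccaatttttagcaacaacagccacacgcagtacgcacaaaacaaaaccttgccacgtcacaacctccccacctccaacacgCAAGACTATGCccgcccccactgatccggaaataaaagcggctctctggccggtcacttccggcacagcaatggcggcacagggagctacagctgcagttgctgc
These windows differ in base composition. That of Sirt1 holds 47 CpG and that of Hdac2 holds 36, whereas the window of Hdac8 holds 6. The median was 20 CpG over the 38 windows of the 26 genes (some genes have several start sites), against 13 over 21263 windows of protein-coding genes. Matches to short motifs were counted on both strands. GGGCGG was present in 23 of the 38 windows, against 46.2% of all windows, and CCAAT in 14, against 38.2%. CCGGAAGT was present in 6 (Hat1, Kat5, Kat7, Kat8, Sirt3 and Sirt6), against 5.15%, CACGTG in 4 (Hat1, Hdac5, Kat5 and Sirt1), against 7.84%, and TGACTCA in 3 (Hdac7, Kat2b and Kat8), against 4.66%. TATAAA was present in 2, Hdac8 and Hdac9, against 12.6%. None of these motifs contains another.

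Among the writers, the GNAT family genes behaved unlike one another. Hat1, which encodes a mainly cytoplasmic acetyltransferase of newly made histone H4 (chromosome 2, 71389260 to 71441622), had 1 start-site summit per library, 610, 465 and 671 bp into the gene. Its ranks were 2940, 564 and 1579 in young-, old- and ABC-labelled order (scores 15.4, 65.5 and 18.3), and it was the highest of all 30 genes in the old-labelled list.

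Kat2b, which encodes PCAF (chromosome 17, 53566774 to 53672721), had its highest-scoring summit just inside the gene in all 3 libraries. It lay 1380 bp past the start site in the young-labelled list (score 22.8, rank 1138), 893 bp past it in the old-labelled list (40.9, rank 2432) and 1412 bp past it in the ABC-labelled one (18.8, rank 1471). The young-labelled list also had a summit at 893 bp, on the same base as the old-labelled one (11.5, rank 4928). The end summit present in the young- and ABC-labelled and absent from the old-labelled library was a weaker one, 25 bp past the start (rank 12512) and 452 bp before it (1.45, rank 45129). The old-labelled summit missed the 1 kb window at 1090 bp from the record end, so the call differed while the main site lay within 519 bp in the 3 libraries.

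Kat2a, which encodes GCN5 (chromosome 11, 100704746 to 100712485), was among the least marked genes. The old-labelled list had 1 summit 526 bp past its start site (score 5.88, rank 33126), the lowest rank of the 30 genes in that list. The only ABC-labelled summit lay at the other end of the gene, 8239 bp from the start and inside the record of Dhx58 (100694884 to 100704271), an RNA sensor gene (4.28, rank 20398). The young-labelled list had no summit in the window, the nearest being 1349 bp from the start site.

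Ep300 and Crebbp, which encode the paralogous coactivators p300 and CBP, were marked in every library. At Ep300 (chromosome 15, 81586209 to 81652077) the summits lay 165, 11 and 166 bp past the start site in the lists labelled young, old and ABC, with scores of 23.1, 32.1 and 15.0 and ranks of 1088, 4025 and 2560. The ABC-labelled list had another one 800 bp upstream (14.2, rank 2840). A weaker site about 8 kb into the gene was present in the young- and old-labelled lists, at 8123 and 8122 bp (5.89 and 13.1).

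At Crebbp (chromosome 16, 4081334 to 4213957, minus strand) the highest-scoring summit was upstream of the gene, 808 bp before the start site and on the same base, 4214212, in all 3 lists. Its scores were 9.59, 24.4 and 8.26, with ranks of 6423, 6162 and 7581 in the lists labelled young, old and ABC. The far end of the gene held further sites common to the 3 libraries. The outermost of these lay 125860, 125711 and 125802 bp from the start, with scores of 3.82, 11.6 and 5.91.

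Of the MYST family genes, Kat7, which encodes HBO1 (chromosome 11, 95271853 to 95310246, minus strand), had start-site summits 397 and 390 bp into the gene in the young- and old-labelled lists (scores 11.1 and 24.8, ranks 5199 and 5991). The ABC-labelled summit lay 374 bp upstream (4.15, rank 21168). A second site deep in the gene, 16999, 16997 and 16996 bp from the start, was placed within 3 bp by the 3 libraries (6.24, 21.0 and 9.27). In the ABC-labelled list this internal site was the higher-scoring of the pair, at rank 6272.

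Kat5, which encodes TIP60, the catalytic subunit of the NuA4 complex (chromosome 19, 5603014 to 5611556, minus strand), was marked at both its start site and its far end. Its highest-scoring end summits in all 3 libraries lay at the 3′ side, 7209, 7341 and 7062 bp from the start and inside the record of Rnaseh2c (5601873 to 5602959), a subunit gene of ribonuclease H2. Their scores were 9.22, 15.4 and 8.58. The start site at 5610094 lies inside the record. The young- and old-labelled summits fell on the same base 6 bp upstream of it (score 7.82, rank 8359, and 29.3, rank 4713), and the ABC-labelled one lay 195 bp upstream (6.57, rank 10816).

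Kat8, which encodes the H4 lysine 16 acetyltransferase MOF (chromosome 7, 127912517 to 127925838), had start-site summits 170 bp upstream in the young-labelled list (2.36, rank 29112) and 50 bp upstream in the old-labelled list (12.3, rank 13281). The ABC-labelled list had none there. Its only summit in the window was 6804 bp into the gene (2.22, rank 40014), and its nearest to a record end was 1033 bp away, just outside the 1 kb limit. That nearest summit lay beyond the far end of the gene and not at the start.

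Kat6a and Kat6b encode the related enzymes MOZ and MORF. Kat6a (chromosome 8, 22859442 to 22943259) had summits 802, 115 and 693 bp inside the lower end of its record, with scores of 8.17, 24.7 and 7.78 and ranks of 8000, 6039 and 8241 in the lists labelled young, old and ABC. Kat6b (chromosome 14, 21499216 to 21672478) had no end summit, but summits 687, 1167 and 1091 bp past a start site, with scores of 5.99, 14.5 and 1.62. Only the young-labelled one was within 1 kb. In the ABC-labelled list all 5 Kat6b summits were weak, the best having rank 34739 (2.68), while the 17 of the old-labelled list were led by the summit at 1167 bp (rank 11166).

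Among the erasers, all 4 class I deacetylase genes had an end summit in every library. Hdac2 (chromosome 10, 36974297 to 37001889) was the highest-ranked of the 30 genes in the young- and ABC-labelled lists and the second highest in the old-labelled list. Its summits fell 234, 222 and 234 bp upstream of the start site, the first and last on the same base, with scores of 27.7, 59.5 and 32.9 and ranks of 637, 815 and 279. These are the capital stretches near the 5′ end of the Hdac2 sequence shown above. Hdac1, the close paralogue of Hdac2 and its partner in the Sin3, NuRD and CoREST complexes (chromosome 4, 129516104 to 129542646), had summits 690, 613 and 805 bp inside the upper end of its record. Their scores were 9.04, 21.7 and 12.5, with ranks of 7008, 7142 and 3690, and the ABC-labelled list held a further one 100 bp beyond that end (8.05).

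Hdac3, the deacetylase of the NCoR and SMRT corepressors, had 1 end summit per library, 214, 222 and 220 bp inside its record. The scores were 13.8, 39.9 and 20.9, with ranks of 3621, 2577 and 1093. The record of Rell2 begins within 1 kb of these summits, so they cannot be assigned to Hdac3 alone. Hdac8 (chromosome X, 102284638 to 102505381) had a single young-labelled summit in its record of 220.7 kb, 9 bp past the start site (12.5, rank 4268). The ABC-labelled list had one 10 bp past the start (10.2, rank 5337) and the old-labelled list one 209 bp past it (35.4, rank 3335). Elsewhere in this long gene the old-labelled list added 6 summits and the ABC-labelled list 1.

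The class IIa genes, which encode signal-regulated deacetylases that shuttle between nucleus and cytoplasm, all held summits in the body of the gene, and differed in the start site. Hdac5 (chromosome 11, 102195747 to 102230172, minus strand) had summits 147, 147 and 152 bp upstream of its start site, the young- and old-labelled ones on the same base. The scores were 19.1, 37.8 and 8.53, with ranks of 1789, 2922 and 7145. A second site 11935, 12098 and 11938 bp into the gene was also common to the 3 lists (8.48, 21.9 and 4.17). Hdac7 (chromosome 15, 97792661 to 97844502) has 4 start sites in the table, and its highest-scoring summit in each list lay 616, 660 and 692 bp past the same internal one. The scores were 10.6, 30.8 and 11.9, with ranks of 5549, 4333 and 4047. Its highest-scoring end summits were weaker, with scores of 1.62, 5.62 and 3.61 and ranks of 32833, 35921 and 25663. In equal-length lists Hdac7 had no old-labelled end summit.

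Hdac4 (chromosome 1, 91928779 to 92195702, minus strand) held 7, 44 and 15 summits in the lists labelled young, old and ABC, the most of any of the 30 genes in each. Its start site in the table, 92180341, lies inside the record and had a summit in the old-labelled list alone, 54 bp past it (13.3, rank 12272). The nearest young- and ABC-labelled summits were 30771 and 16438 bp from it. The highest-scoring ABC-labelled summit of Hdac4 was 99973 bp into the gene (8.17, rank 7696), on the same base as a young-labelled one (2.95), and 3 positions in the body were common to the 3 lists.

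Hdac9 (chromosome 12, 34047580 to 34917095, minus strand), the longest record at 869.5 kb, was marked in its body only, with 5, 25 and 11 summits. No summit lay near either of its start sites in the table, the nearest being 66405, 9679 and 32796 bp away. The highest-scoring summit was nevertheless at one place in all 3 lists, 34713919, 34713964 and 34713980, within 61 bp. Its scores were 10.7, 32.0 and 15.6, with ranks of 5512, 4051 and 2350. A second site, 34389697, fell on the same base in all 3 lists (4.03, 10.4 and 8.41).

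The remaining deacetylase genes belong to classes IIb and IV. Hdac6, which encodes a cytoplasmic deacetylase of tubulin (chromosome X, 7930116 to 7948047), had no young-labelled summit, the nearest lying 48209 bp from its start site. The old-labelled list had one 192 bp past the start (9.34, rank 18071) and the ABC-labelled list one 459 bp past it (1.78, rank 43965), which is close to the bottom of that list. Hdac11, the single class IV gene (chromosome 6, 91156670 to 91174692), had summits on the same base 24 bp upstream of the start in the old-labelled (18.8, rank 8440) and ABC-labelled lists (7.31, rank 9151). The nearest young-labelled summit was 2117 bp past the start (2.89, rank 25251), at a site that the old- and ABC-labelled lists also had, at 2328 and 2289 bp (6.74 and 6.80).

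Hdac10, a polyamine deacetylase gene (chromosome 15, 89123303 to 89128700), had 2 summits in each list, 1 at each end. Those at the upper end were 120, 219 and 249 bp inside the record, with scores of 6.51, 24.8 and 9.51. Those at the lower end lay beyond it, at 89122747, 89122772 and 89122768, inside the record of Tubgcp6 (89099097 to 89123208), with scores of 14.1, 26.2 and 6.69.

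Of the 7 sirtuin genes 4 (Sirt2, Sirt3, Sirt6 and Sirt7) had end summits only where another protein-coding record lay within 1 kb. Counting only summits near a single record, 3 sirtuin genes were marked in each library, Sirt1, Sirt4 and Sirt5. Sirt1, which encodes a nuclear deacetylase of histones and p53 (chromosome 10, 63319005 to 63339035, minus strand), had its highest-scoring summit within 5 bp in the 3 libraries, 23, 28 and 25 bp past the start site. The scores were 9.25, 16.0 and 4.19, with ranks of 6779, 10081 and 20907. This is the capital stretch toward the 3′ end of the Sirt1 sequence.

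Of the other nuclear sirtuins, Sirt7 (chromosome 11, 120618371 to 120625014), which encodes a nucleolar enzyme, had 1 summit per list at 596, 595 and 595 bp past its start, near the record of Mafg. Ranks were 5944, 4654 and 5544. Sirt6, whose product removes acetyl groups from H3K9 (chromosome 10, 81621787 to 81627792), was the only gene of the 30 with no ABC-labelled summit, the nearest lying 5820 bp from a record end. The young-labelled summit was 50 bp past a start site (3.90, rank 19331) and the old-labelled one 5 bp past it (11.5, rank 14266), both within 1 kb of Ankrd24. Sirt2, the mainly cytosolic sirtuin (chromosome 7, 28766752 to 28788665), had summits upstream of its start at 478, 221 and 221 bp, inside the record of Nfkbib, with ranks of 6056, 3662 and 6501. Others lay beyond its 3′ end inside Rinl (scores of 8.86, 18.9 and 14.6).

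The mitochondrial sirtuin genes were also marked in all 3 libraries. Sirt5 (chromosome 13, 43365389 to 43395203) had summits 386 and 385 bp past the start site in the young- and old-labelled lists (15.2, rank 3014, and 41.4, rank 2366) and 21 bp before it in the ABC-labelled list (10.5, rank 5156). Sirt3 (chromosome 7, 140863663 to 140882309, minus strand) had summits 290, 200 and 291 bp upstream, inside the neighbouring record of Psmd13, a proteasome subunit gene. The scores were 10.8, 26.8 and 4.44.

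Sirt4 (chromosome 5, 115478006 to 115490264, minus strand) had the highest-ranked sites among the sirtuins in the old- and ABC-labelled lists, and they were not at the start site in the table. They lay 5742, 5806 and 5925 bp upstream of it, at the upper end of the record, with scores of 14.3, 43.8 and 16.1 and ranks of 3362, 2048 and 2168. Weaker summits lay 126 bp past, 217 bp before and 56 bp before that start site (6.40, 14.5 and 4.97).

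The readers Brd2 and Brd3 encode BET proteins with paired bromodomains. Brd2 (chromosome 17, 34112019 to 34122814, minus strand) had an internal site at 34119104, 34119103 and 34119104, 796 or 797 bp past a start site in all 3 lists, with scores of 9.62, 8.92 and 3.04. The record of H2-DMa begins within 1 kb of this site, so it cannot be assigned to Brd2 alone. A second site lay 1836, 1691 and 1654 bp past the same start (9.52, 15.5 and 9.86), and was the higher-scoring one in the old- and ABC-labelled lists. The end call of Brd2 in the old-labelled library alone came from a summit of rank 50186 (4.42), beyond the record and inside that of H2-DMa (34119693 to 34139101). Brd3 (chromosome 2, 27445576 to 27507657, minus strand) had start-site summits 465 bp past the start in the young-labelled list (4.29, rank 17140) and 278 bp before it in the old-labelled list (14.9, rank 10873). The nearest ABC-labelled summit was 2303 bp upstream (4.54, rank 18990). Sites 12065, 12035 and 12051 bp upstream of that start (10.1, 9.53 and 5.45) and 29077, 29033 and 28897 bp upstream (4.35, 17.0 and 7.55), all inside the record, were common to the 3 lists.

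Within each list the order of the genes was broadly alike at the top. Each gene was placed by its highest-scoring summit, and the 10 leading genes of the 3 lists had 6 in common, Hdac2, Hdac3, Hat1, Kat2b, Ep300 and Sirt4. The median gene with a summit stood above 82.7%, 95.0% and 86.8% of its list in the libraries labelled young, old and ABC, against 79.6%, 92.0% and 82.3% for all protein-coding genes with a summit. Of the genes with a summit 20, 21 and 20 lay above that median of all genes. A longer record draws its highest-scoring summit from a longer stretch. As these records are longer than most (median 27068 bp against 17169 bp), both comparisons are affected by length. By class, the median rank in the young-labelled list was 6423 for Kat, 4890 for Hdac, 5944 for Sirt and 6180 for Brd genes. In the old-labelled list it was 6015, 4333, 4654 and 9954.5, and in the ABC-labelled list 7339, 5337, 5350 and 7193. The Hdac genes had the lowest median rank number in each list, though close to that of the Sirt genes in the ABC-labelled list. Genes without a summit were left out of these medians (Kat2a and Hdac6 in the young-labelled, Sirt6 in the ABC-labelled list). The class medians are affected by record length as well. Single Hdac genes ranged from near the top (Hdac2) to the lower part of a list (Hdac6 and Hdac11).

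**Figure D3:**
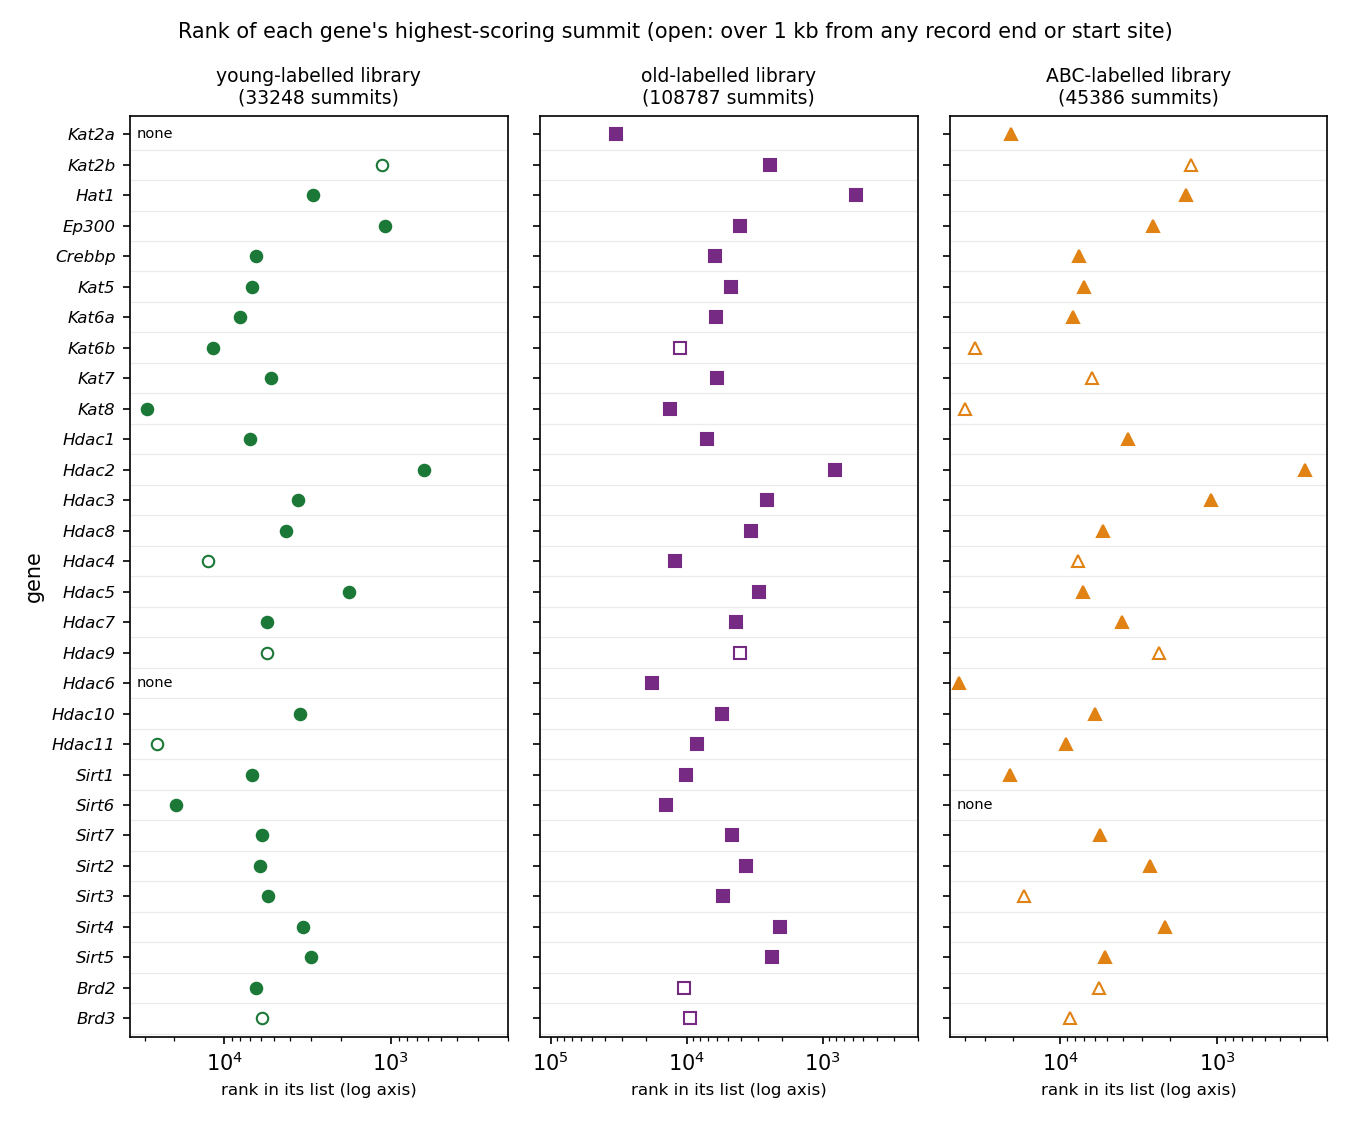
Rank of the highest-scoring summit of each of the 30 genes (rows) inside its own list, on a log axis with rank 1 to the right; the panels are the libraries labelled young, old and ABC, filled symbols are summits within 1 kb of a record end or start site and open symbols lie elsewhere in the gene. Hdac2 is far to the right in each panel, at ranks 637, 815 and 279, and "none" marks Kat2a and Hdac6 in the young-labelled and Sirt6 in the ABC-labelled list.

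Most summits at these genes were away from the record ends. Of the summits at these genes 48 of 74, 180 of 216 and 74 of 104 lay inside records more than 1 kb from an end. The 4 class IIa genes alone held 16, 83 and 30 of these. The density over all 30 genes was 0.30, 0.87 and 0.42 summits per 10 kb, against 0.25, 0.72 and 0.33 over all protein-coding genes. Long genes differed among themselves: in the old-labelled list Hdac4 held 1.64 summits per 10 kb, Crebbp 1.19 and Kat6b 0.97, but Hdac8 0.31 and Hdac9 0.29.

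**Figure D4:**
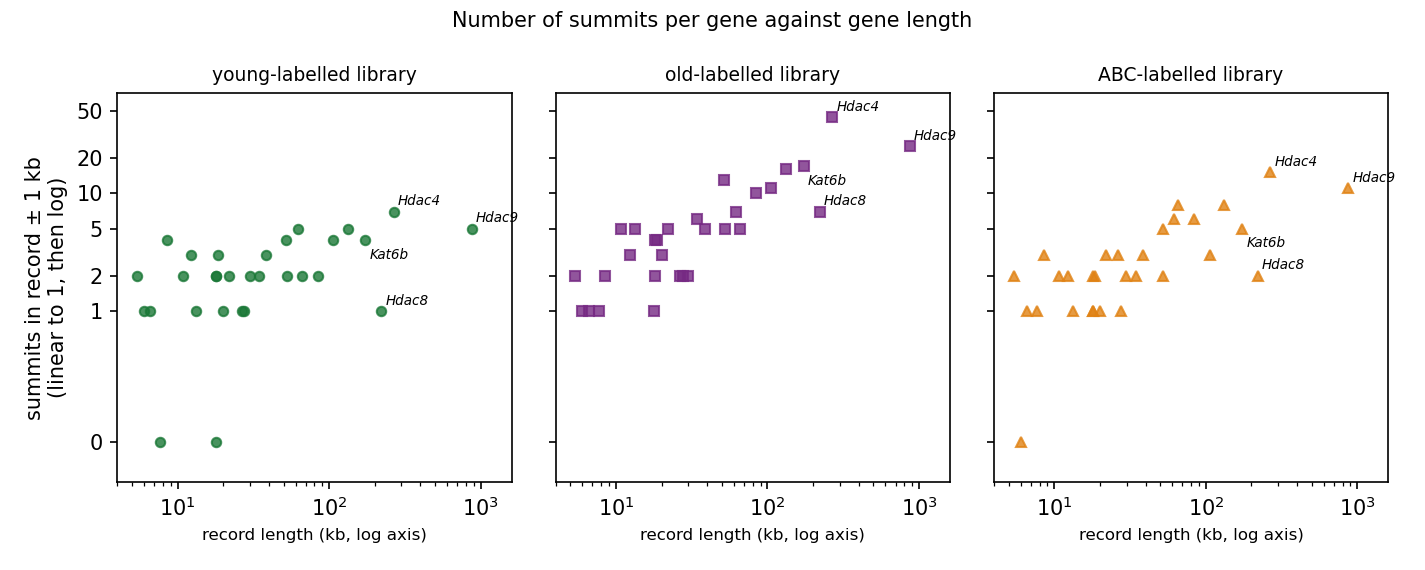
Number of summits in each gene record with 1 kb on either side (vertical axis, linear to 1 and then log) against record length in kb (log axis) for the 30 genes, 1 panel per library. Hdac4 holds the most in each panel (7, 44 and 15), and Hdac8, at 220.7 kb, holds 1, 7 and 2.

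Summits of the 3 lists no more than 500 bp from the next were joined into 251 positions. Of these 45 were held by all 3 libraries, 45 by a pair and 161 by 1, of which 124 were in the old-labelled library alone. In equal-length lists 36 of 128 positions were held by all 3 libraries and 64 by 1. The same count was not made over all genes, so these numbers show nothing particular to the acetylation genes. By class, all 3 libraries held 10 of 19 positions at Sirt, 4 of 17 at Brd, 19 of 117 at Hdac and 12 of 98 at Kat genes. Positions in the old-labelled library alone made up 5, 7, 64 and 48 of these, and the long record of Hdac4 held 49 positions. These shares are therefore affected by record length and by the longest list, and do not rank the classes by sharing.

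In the pairwise comparisons, which share libraries, the counts were small, at 1 to 5 of 30 genes. In the old-labelled and not the young-labelled library, end summits were present at 5 of 30 genes (Kat2a, Hdac6, Hdac11, Brd2 and Brd3), against 16.6% of all genes, and in the reverse direction at 1, Kat2b, against 1.59%. In the old-labelled and not the ABC-labelled library there were 3 (Kat8, Sirt6 and Brd2), against 15.6%, and in the reverse direction Kat2b, against 2.23%. In the young-labelled and not the ABC-labelled library there were 2 (Kat8 and Sirt6), against 4.78%, and in the reverse direction 4 (Kat2a, Hdac6, Hdac11 and Brd3), against 6.43%. In equal-length lists these 6 counts were 3, 2, 3, 2, 3 and 3, against 6.90%, 3.28%, 8.22%, 3.20%, 6.09% and 4.70% of all genes. As deposited, the ABC-labelled end summits of Kat2a and Brd3 lay 8239 and 30411 bp from a start site. That of Hdac6 was close to the bottom of its list (rank 43965). Some differences turned on the limit of 1 kb. In the old-labelled list Kat2b had a summit just outside it (1090 bp) and Brd3 one inside it (792 bp). Kat8 in the ABC-labelled list had one just outside (1033 bp), but beyond the far end of the gene. Its start-site difference therefore did not turn on the limit. Hdac4 in the ABC-labelled (1077 bp) and Kat6a in the young-labelled list (802 bp) were also near the limit. Their end state as deposited was the same in all 3 libraries. Hdac6 in the young-labelled library and Sirt6 in the ABC-labelled library had no summit for several kb. The same held for the Hdac4 start site in the young- and ABC-labelled libraries and the Kat8 start sites in the ABC-labelled library (6804 bp).

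Other genes of the pathway, partners and cofactor enzymes of these proteins, were counted in the same way. Of 87 further genes, 70, 73 and 67 had an end summit in the libraries labelled young, old and ABC, 63 had one in all 3 and 11 in none, against 41.9%, 56.9% and 43.6% of all protein-coding genes in each library and 36.3% in all 3. Subunit genes of SAGA and ATAC, the complexes that carry GCN5 or PCAF, had one in all 3 libraries in 20 of 22 cases. The count was 17 of 23 for deacetylase complexes, 10 of 19 for partners of the MYST enzymes, 10 of 16 for other acetyl-lysine readers and 6 of 7 for genes of acetyl-CoA and NAD supply. The highest-ranked were Dpf2, a BAF complex subunit (ranks 122, 225 and 137), Mbip, an ATAC subunit (308, 174 and 184), Tada3 (357 in the young-labelled list), Nadsyn1, which makes NAD (374 in the old-labelled list), and Atad2 (711 in the ABC-labelled list). The 3 leading genes of the young-labelled list stood above Hdac2 (rank 637), and those of the old-labelled list above Hat1 (rank 564).

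The 11 genes with no end summit in any library were Sgf29, Epc2, Jade1, Msl1, Mrgbp, Tbl1x, Tbl1xr1, Mta1, Brdt, Taf1 and Cecr2. Mta1 missed by little, with summits 1047, 1064 and 1043 bp from an end, while Brdt, the BET gene known from the testis, had its nearest at 9793, 2470 and 8245 bp. In equal-length lists 17 of the 87 genes, and 8 of the 30, had an end summit in some libraries and not in all, against 16.2% of all protein-coding genes. The genes marked in the young- and old-labelled but not the ABC-labelled lists were Ing3, Ing4, Mbd3, Rbbp7, Smarca2 and Mllt1, of which Ing3, Ing4 and Rbbp7 had ABC-labelled end summits outside the equal-length list. Jade2, Ing5 and Ing1 were marked in the old-labelled list alone, Naprt in the old- and ABC-labelled, Chd4 in the ABC-labelled alone (12.5, with young- and old-labelled summits at 1122 and 1276 bp), Trrap, Ep400 and Mllt3 in the young-labelled alone, and Brd1, Msl3 and Morf4l1 in the young- and ABC-labelled. As deposited, Trrap, Mllt3, Brd1 and Msl3 also had old-labelled end summits, 776, 5, 256 and 135 bp from an end, and Ep400 an ABC-labelled one at 25 bp, all outside the equal-length lists.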

How the data were processed

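H3K9ac CUT&Tag was measured in 3 libraries of sorted HSCs, 1 per group, and groups were taken from the labels. The tools named are MACS2, BWA, edgeR and Picard, with build mm10, per the submitters' processing notes; the sources used here do not give what each did, its version or any control library. As the authors deposited them, files list summits of 1 bp with a score, read as −log10 of the q-value because every list starts just above 1.30, the −log10 of 0.05. Peaks were taken as called per library, and no filter was applied here.

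Gene records and promoter sequences came from RefSeq tables of GRCm38.p6. Summits were assigned to 21887 protein-coding records with Python 3.11.15 and pandas 2.3.3, in code tested on simulated summits. A summit was shared when within 500 bp of the next in another list. With 1 library per group there was no test, and read depth was unknown, so no interval or floor is given. The genes and lists were chosen with earlier results of these data known. Named genes were all 30, further pathway genes with no end summit, with differing states in equal-length lists, or among the 3 highest ranks of a list, and genes sharing an end summit; other pathway or marker genes were named after their values were seen. Alternatives were scores of at least 5 or 10, equal-length lists, ends within 500 bp or 2 kb, summits at 1 record only, merging within 500 bp, and sharing within 250 or 1000 bp.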

Additional observations from a re-analysis of the deposited data

How the results depend on the processing

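Of 192 recomputed counts, 140 stayed within 1.5 times the reported count. No paired analysis was possible because each group had 1 library, and leaving out a library would leave its group empty. Depth was unknown and limits every absence. Shares of all protein-coding genes are given only for lists as deposited and equal-length lists. The counts below at other settings therefore show nothing particular to these genes.

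With scores of at least 10, genes with an end summit fell to 13 (young-labelled) and 10 (ABC-labelled), genes with any summit to 17 and 13, Kat genes to 3 and 2, ABC-labelled Hdac genes to 4 and Brd genes to 0. The wider genes fell to 43 and 33, and positions to 49, with 11 in all 3 libraries and 31 in 1. Pairwise counts became 8 (old, not young) and 0 (reverse), 11 (old, not ABC) and 0 (reverse), and 4 (young, not ABC) and 1 (reverse). As a score grows with depth, a fixed score does not cut the 3 lists alike, and these pairwise counts show no change between libraries. With scores of at least 5, Brd genes fell to 0 in the old- and ABC-labelled lists and ABC-labelled Kat genes to 5, and pairs gave 8 (old, not ABC), 0 (reverse), 4 (young, not ABC) and 1 (reverse).

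Equal-length lists gave 0 old-labelled Brd genes, 128 positions with 64 in 1 library, and pair counts of 3 (old, not young), 2 (reverse) and 2 (ABC, not old). With ends within 500 bp, young-labelled Sirt genes fell to 4, ABC-labelled Kat genes to 5, Brd genes to 0 and young-labelled wider genes to 45, with pair counts of 2 (young, not old), 5 (old, not ABC), 4 (reverse) and 1 (young, not ABC). Ends within 2 kb gave 0 (young, not old), 0 (ABC, not old) and 1 (young, not ABC). Summits at 1 record only left 3 Sirt genes in each library and 1 and 0 Brd genes in the old- and ABC-labelled lists, with pair counts of 1 (young, not ABC) and 2 (reverse). Merging and other sharing distances moved no count beyond 1.5 times. Scores, shorter lists and narrower windows leave fewer summits by construction; no other cause was tested.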

Other observations

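Several summits at these genes fell on exactly the same base in different libraries. This was so for 5 summits of the young- and old-labelled lists, 5 of the old- and ABC-labelled and 6 of the young- and ABC-labelled, at Brd2, Crebbp, Hdac2, Hdac4, Hdac5, Hdac7, Hdac9, Hdac11, Kat2b, Kat5, Sirt2 and Sirt7. In Crebbp and Hdac9 all 3 libraries used 1 base, which makes 2.70% of the 74 young-labelled summits. Over the whole lists 358 bases were common to the 3, or 1.08% of the young-labelled summits. Of the young-labelled summits, 6.76% at these genes and 5.07% over the whole list were on the base of an old-labelled one. For the base of an ABC-labelled one these shares were 8.11% and 3.93%. Of the ABC-labelled summits, 4.81% at these genes and 4.25% over the whole list were on the base of an old-labelled one. What sets the exact base was not tested.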
